A study of Mus musculus with 23 samples.

Results

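Sex differences in the liver RNA of mice lacking P2ry13 were described from 12 of the 23 arrays of the series, those whose titles name a knockout (KO) animal and its sex: 6 female KO and 6 male KO livers. P2ry13, called GPR86 in the titles, encodes a P2Y-type receptor that binds ADP. The series was made to find transcripts that depend on this gene; here genotype was held fixed and the sexes were compared. Every animal of the comparison is KO, and the liver of 1 mouse went on 1 array, as the design text describes it. The remaining 11 arrays, 6 female wild-type (WT) and 5 male WT livers that carry the replicate numbers 2 to 6, gave the same sex comparison in mice with the gene. Strain, age, diet and time of death, the tissues in which the gene was deleted and the kinship of KO and WT mice were not found in the labels or the design text, and no group received a treatment that the labels name. The account is limited to autosomal genes, and X-linked and Y-linked genes served to check the labels.

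Mouse liver is among the most sexually dimorphic organs at the level of RNA. Growth hormone leaves the pituitary in separated pulses in males and more continuously in females, and hepatocytes read this pattern through the growth hormone receptor, the kinase JAK2 and the transcription factor STAT5B. BCL6, a repressor more abundant in male liver, and CUX2, a factor of female liver, act on many of the same genes. The best known targets encode P450 monooxygenases, sulfotransferases, steroid dehydrogenases, organic anion carriers, complement components and urinary proteins.

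The arrays hold 38385 probe sets, and values are log2 intensities throughout. Of these, 23405 have a single gene symbol placed on an autosome and stand for 18249 genes. The arrays are alike in scale, with medians of 19.5 to 21.1 in linear units and correlations of 0.984 to 0.995 between any 2 KO arrays. Eif2s3y, a Y-linked gene, read 2.80 to 3.01 in the female KO and 8.57 to 8.84 in the male KO livers, and a probe set of Xist, the transcript of X inactivation, read 8.91 to 9.78 in females and 4.21 to 5.22 in males, so all 12 sex labels matched. The deleted gene read 5.06, 5.17 and 5.22 (lowest, median, highest) in female and 5.07, 5.16 and 5.34 in male KO livers. Its KO sex difference was -0.04 (SE 0.09, limma, adjusted p = 0.878). Over 4 probe sets of Y-linked genes, female KO arrays read 2.53 to 3.47, and values up to 3.47 are called background below. A fold given as "at least" was computed after raising each array of the lower group that read below this top value to it. The level may be too low for other probe sets. That of the deleted gene read 5.06 to 5.34 in KO livers, against 5.80 to 6.42 in WT. How much of this KO signal is background was not tested, so folds without "at least" may also be understated. The 5 measured hepatocyte markers averaged 13.72 to 13.78 in the female and 13.71 to 13.76 in the male KO arrays. Female KO replicate 3 carried RNA of exocrine pancreas markers (Cela2a at 7.54, against 4.96 in the next female) and female KO replicate 6 that of skeletal muscle markers (Ckm at 6.87, next female 4.95). Counts are therefore also given without these 2 arrays, a choice made after the data were seen.

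Female and male KO livers differed in 1336 of 18249 autosomal genes (7.32%; limma with Benjamini-Hochberg adjustment over all probe sets, adjusted p under 0.05, taking the probe set with the smallest p for each gene). Females were higher in 918 (5.03%) and lower in 418 (2.29%). By probe set, 1444 of 23405 passed (6.17%), 996 higher (4.26%) and 448 lower (1.91%), and 1186 did without female KO replicates 3 and 6. Most differences were small. The median size was 0.44 on the log2 scale among genes higher in females, with quartiles of 0.34 and 0.60, and 0.42 among genes lower in females, with quartiles of 0.32 and 0.64. A difference of at least 1 was reached by 83 genes in the first set and 48 in the second, and one of at least 3 by 19 and 8. In 549 of the 918 every female array lay above every male array, and in 246 of the 418 every female array lay below. Over all 18249 genes such a separation occurred for 638 (3.5%) and 292 (1.6%). For 942 of the 1336 genes the array held a single probe set; of the other 394, 92 had further probe sets passing the same way and 3 had probe sets passing in opposite directions.

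**Figure D1:**
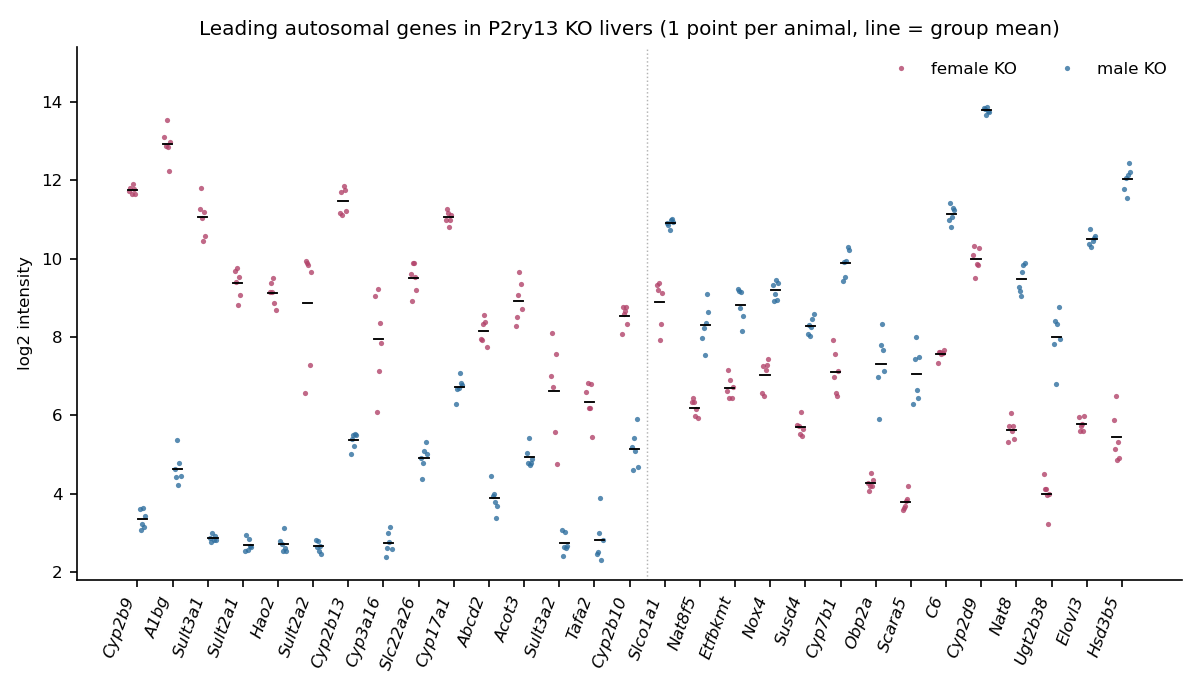
Log2 intensity of 29 of the 30 leading autosomal genes in each of 6 female KO and 6 male KO livers, with 1 point per animal and a line at each group mean. Genes left of the dotted line were higher in females, and 1 leading gene lower in females is not drawn. In each of these genes the points of the sexes do not overlap, from 15 genes led by Cyp2b9 to 14 genes led downward by Hsd3b5.

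The largest measured difference on the female side was that of Cyp2b9, a P450 monooxygenase of the steroid- and drug-oxidising CYP2B subfamily. It read 11.64, 11.75 and 11.91 in female KO and 3.06, 3.32 and 3.63 in male KO livers. Every female lay far above every male, and the male mean lay in the background. The difference was 8.41 (SE 0.11, at least 301-fold, limma, adjusted p = 2.24e-28). Its neighbour on chromosome 7, Cyp2b13, read 11.10, 11.46 and 11.85 in females against 5.01, 5.45 and 5.52 in males, a difference of 6.11 (SE 0.19, 68.9-fold, limma, adjusted p = 2.76e-19). Cyp2b10, the member of the subfamily best known for induction by phenobarbital, differed by 3.38 (SE 0.24, 10.4-fold, limma, adjusted p = 3.74e-11). Probe sets can share signal between such close paralogs, so the split between them is uncertain. This likeness extends into the promoters: in the 200 bases before the start of transcription, 199 of 200 bases of Cyp2b9 and Cyp2b13 are identical.

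Promoters of 10 leading genes are shown so that their sequences can be compared. They are, in each direction, the 5 largest differences among the 15 leading genes with exactly 1 promoter in the table used. They are RefSeq sequences of build GRCm38.p6, the last 200 bases before each annotated start, 5′ to 3′ on the gene's strand, in lower case. Capitals mark the letters TTCNNNGAA, the core bound by STAT factors, which reads the same on both strands; no other motif is marked. The windows, with their strand, are chr7:26173209-26173408 (plus) for Cyp2b9, chr15:60921271-60921470 (minus) for A1bg, chr10:33857522-33857721 (plus) for Sult3a1, chr3:98893231-98893430 (minus) for Hao2, chr7:26061295-26061494 (plus) for Cyp2b13 among the genes higher in females. They are chr3:98645535-98645734 (minus) for Hsd3b5, chr5:87424204-87424403 (minus) for Ugt2b38, chr15:82452177-82452376 (plus) for Cyp2d9, chr15:4727010-4727209 (plus) for C6, chr2:25699874-25700073 (plus) for Obp2a among those lower.
Cyp2b9: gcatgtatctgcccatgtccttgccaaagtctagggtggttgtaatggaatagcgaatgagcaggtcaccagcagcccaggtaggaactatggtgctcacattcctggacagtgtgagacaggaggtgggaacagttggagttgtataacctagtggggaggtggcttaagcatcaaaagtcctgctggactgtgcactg
A1bg: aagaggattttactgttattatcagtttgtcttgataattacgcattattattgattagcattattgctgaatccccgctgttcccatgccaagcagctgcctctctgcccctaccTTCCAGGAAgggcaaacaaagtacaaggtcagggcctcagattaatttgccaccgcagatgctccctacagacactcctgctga
Sult3a1: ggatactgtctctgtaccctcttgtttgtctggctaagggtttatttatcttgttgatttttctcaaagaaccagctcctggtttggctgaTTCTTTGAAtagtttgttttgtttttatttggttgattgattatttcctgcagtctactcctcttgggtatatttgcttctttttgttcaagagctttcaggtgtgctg
Hao2: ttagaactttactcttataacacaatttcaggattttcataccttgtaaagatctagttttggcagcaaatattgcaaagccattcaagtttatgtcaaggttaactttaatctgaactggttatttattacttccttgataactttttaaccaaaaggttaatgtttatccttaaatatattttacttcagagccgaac
Cyp2b13: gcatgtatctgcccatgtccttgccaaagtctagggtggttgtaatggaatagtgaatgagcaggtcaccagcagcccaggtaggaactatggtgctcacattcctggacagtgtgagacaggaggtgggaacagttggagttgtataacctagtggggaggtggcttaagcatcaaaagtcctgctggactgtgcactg
Hsd3b5: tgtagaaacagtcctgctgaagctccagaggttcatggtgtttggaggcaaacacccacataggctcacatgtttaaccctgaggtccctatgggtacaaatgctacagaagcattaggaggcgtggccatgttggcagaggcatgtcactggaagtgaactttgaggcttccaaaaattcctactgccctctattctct
Ugt2b38: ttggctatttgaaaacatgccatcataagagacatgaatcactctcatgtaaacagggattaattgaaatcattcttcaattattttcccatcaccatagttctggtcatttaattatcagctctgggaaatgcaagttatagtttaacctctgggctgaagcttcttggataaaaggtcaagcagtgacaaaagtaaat
Cyp2d9: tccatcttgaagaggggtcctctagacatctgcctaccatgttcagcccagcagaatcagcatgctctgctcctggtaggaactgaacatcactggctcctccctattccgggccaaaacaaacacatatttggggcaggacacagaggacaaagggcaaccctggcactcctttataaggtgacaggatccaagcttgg
C6: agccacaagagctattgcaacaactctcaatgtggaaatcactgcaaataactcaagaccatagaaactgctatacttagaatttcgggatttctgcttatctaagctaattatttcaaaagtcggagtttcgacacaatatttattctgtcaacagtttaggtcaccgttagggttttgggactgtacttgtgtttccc
Obp2a: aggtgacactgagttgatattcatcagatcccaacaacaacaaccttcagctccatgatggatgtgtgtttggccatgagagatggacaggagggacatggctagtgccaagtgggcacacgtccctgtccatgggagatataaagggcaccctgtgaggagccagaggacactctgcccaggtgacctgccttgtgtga
The letters occur in 2 of these 10 windows, those of A1bg and Sult3a1, and in 3 of the 22 leading genes with any promoter in the table, the other being Slc22a26. Among all 32851 RefSeq promoters, 5.49% hold them in this window, as do 4.93% of 973 promoters of the genes higher in female KO livers and 6.32% of 427 promoters of those lower. Both shares lie near the 5.23% of all 17951 promoters of measured autosomal genes. A match describes the letters only and is not a binding site.

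A1bg, a secreted plasma glycoprotein, had a difference of like size, and its order relative to Cyp2b9 is not settled, since the Cyp2b9 fold is a bound. A1bg read 12.22, 12.92 and 13.53 in female KO and 4.22, 4.53 and 5.35 in male KO livers. No female came near the male range, and the difference was 8.28 (SE 0.24, 312-fold, limma, adjusted p = 8.17e-20). Slc22a26, an organic anion carrier of the liver, differed by 4.58 (SE 0.15, 24.0-fold, limma, adjusted p = 9.66e-19), and Abcd2, a peroxisomal carrier of very long-chain acyl groups, by 4.27 (SE 0.15, 19.3-fold, limma, adjusted p = 3.13e-18). The 3 other probe sets of Abcd2 passed the same way, at 2.55 to 4.16.

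P450s divided by their known bias. Of 13 measured P450 genes known as female-biased, 12 were higher in female KO livers and 0 lower, with a median difference of 2.82, where the background share is 5.03%; Cyp26a1, a retinoic acid hydroxylase named here after its value was seen, read -0.77 without passing. Cyp17a1, the enzyme that hydroxylates pregnenolone and progesterone, read 10.79, 11.04 and 11.27 in females and 6.28, 6.73 and 7.08 in males, 4.33 apart (SE 0.17, 20.1-fold, limma, adjusted p = 4.3e-17). Cyp3a16, a CYP3A enzyme of young and female mice, spread widely among females. Its female values were 9.04, 6.09, 9.22, 7.12, 8.35 and 7.84 in replicates 1 to 6, and its male values were 2.37, 2.68 and 3.15, all in the background. The difference was 5.20 (SE 0.52, at least 22.3-fold, limma, adjusted p = 6.28e-08). Cyp2c39, an epoxygenase of the CYP2C subfamily, was 2.90-fold higher (SE 0.10 on the log2 scale, limma, adjusted p = 1.56e-11).

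Of 8 measured P450s known as male-biased, 4 were lower in female KO livers and 0 higher, with a median of -0.44 and a background share of 2.29%. Cyp2d9, a steroid 16-alpha-hydroxylase, read 9.49, 9.98 and 10.32 in females and 13.66, 13.78 and 13.87 in males. Males were tightly grouped and all above the females, with a difference of -3.80 (SE 0.10, 13.96-fold lower in females, limma, adjusted p = 1.99e-21). Cyp7b1, the oxysterol 7-alpha-hydroxylase, differed by -2.78 (SE 0.21, 6.86-fold lower, limma, adjusted p = 1.38e-10). Cyp2f2, a naphthalene-oxidising P450, differed by -0.42 (SE 0.07, 1.34-fold lower, limma, adjusted p = 0.000378).

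Sulfotransferases, which add sulfate to steroids, bile acids and drugs, were mostly higher in females. Of 17 measured genes of the family and of sulfate supply, 10 were higher and 1 was lower (over all genes 5.03% and 2.29%), with a median of 0.71. Sult3a1, an amine sulfotransferase, read 10.44, 11.11 and 11.80 in female KO and 2.77, 2.85 and 2.98 in male KO livers. Males were in the background without exception, and the difference was 8.19 (SE 0.20, at least 192-fold, limma, adjusted p = 1.05e-21). Sult2a1, which sulfates hydroxysteroids and bile acids, read 8.82, 9.47 and 9.75 in females and 2.54, 2.64 and 2.93 in males, a difference of 6.68 (SE 0.28, at least 60.1-fold, limma, adjusted p = 2.51e-16). Sult2a2, its close paralog, read 6.57, 9.95, 9.88, 9.83, 7.28 and 9.66 in female replicates 1 to 6 and 2.47 to 2.81 in males. Female replicates 1 and 5 stood below the other 4 and still above every male; the difference was 6.21 (SE 0.39, at least 42.0-fold, limma, adjusted p = 3.52e-12). Sult3a2 differed by 3.88 (SE 0.44, at least 8.85-fold, limma, adjusted p = 7.08e-07). Papss2, which makes the sulfate donor PAPS, was 1.89-fold higher in females (SE 0.09 on the log2 scale, limma, adjusted p = 2.18e-08).

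Hydroxysteroid dehydrogenases and reductases ran in both directions: of 23 measured genes, 3 were higher in females and 6 lower (over all genes 5.03% and 2.29%), with a median of -0.03. Without female KO replicates 3 and 6 the counts were 2 and 4. Hsd3b5, a ketosteroid reductase of male liver, read 5.87, 5.13, 6.48, 4.86, 5.33 and 4.91 in female KO replicates 1 to 6 and 11.55, 12.10 and 12.44 in male KO livers. All females lay more than 5 log2 units below the lowest male, and the difference of -6.60 was the largest on the male side (SE 0.31, 96.9-fold lower in females, limma, adjusted p = 4.11e-15). Hsd3b2 differed by -1.88 (SE 0.25, 3.68-fold lower, limma, adjusted p = 7.02e-06), though its other probe set read -0.34, and Hsd3b4 was at least 2.16-fold lower (limma, adjusted p = 3.57e-07). Akr1d1, the steroid 5-beta-reductase of bile acid synthesis, went the other way at 0.69 (SE 0.12, 1.61-fold higher, limma, adjusted p = 0.000285). Signal can be shared among the Hsd3b genes as well.

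The remaining enzymes of drug handling were mixed. Of 4 measured flavin monooxygenases, which oxidise nitrogen and sulfur in drugs, Fmo1, Fmo2 and Fmo4 were higher in female KO livers (1.10, 1.84 and 0.93; limma, adjusted p = 4.54e-12, 3.13e-08 and 0.000318) and Fmo5 was lower (-0.50; limma, adjusted p = 0.00188). Of 24 measured glucuronosyl and glutathione transferases, 7 were higher and 2 lower (over all genes 5.03% and 2.29%), with a median of 0.03. Ugt2b38, a glucuronosyltransferase, read 3.22, 4.04 and 4.51 in females and 6.80, 8.13 and 8.75 in males. The sexes did not overlap, and the difference was -4.02 (SE 0.34, 16.3-fold lower, limma, adjusted p = 2.46e-09). Gstt3, a theta-class glutathione transferase, differed by 1.58 (SE 0.09, limma, adjusted p = 6.68e-13).

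Among 22 measured transporters, 10 were higher in female KO livers and 4 lower (over all genes 5.03% and 2.29%), with a median of 0.35. Slco1a1, an organic anion carrier of the sinusoidal membrane, read 7.93, 9.17 and 9.36 in females and 10.72, 10.92 and 11.01 in males, a difference of -2.02 (SE 0.19, 4.05-fold lower, limma, adjusted p = 2.64e-08). Abcg2, an exporter of drugs and urate, differed by -1.33 (SE 0.09, limma, adjusted p = 3.07e-11), with a second probe set at -0.94. Atp6v0d2, a subunit of the proton pump of vesicles, was 6.91-fold higher in females (SE 0.25 on the log2 scale, limma, adjusted p = 1.1e-08).

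Many secreted proteins were higher in males. Of 22 measured genes, 12 were lower in female KO livers and 4 higher (over all genes 2.29% and 5.03%), with a median of -0.40. Of 5 measured genes of the membrane attack complex in this list, picked out after their values were seen, 4 were lower in females, and C8g read 0.002 (limma, adjusted p = 0.993). C6 read 7.32, 7.59 and 7.66 in females and 10.81, 11.16 and 11.41 in males. A gap of more than 3 log2 units parted the sexes, and the difference was -3.58 (SE 0.11, 11.9-fold lower, limma, adjusted p = 1.29e-19), with a second probe set at -3.66. C8a was 2.74-fold, C8b 2.25-fold and C9 2.23-fold lower in females (limma, adjusted p = 3.52e-12, 2.13e-08 and 5.17e-11). Susd4, which restrains complement activation, differed by -2.58 (SE 0.15, 5.99-fold lower, limma, adjusted p = 1.16e-12). Serpina1e, an alpha-1-antitrypsin gene, was 2.16-fold lower, while Serpina6, the corticosteroid-binding globulin, was 2.10-fold higher (limma, adjusted p = 6.87e-06 and 8.82e-09). Hamp2, a hepcidin gene, was 6.52-fold higher in females (SE 0.19 on the log2 scale, limma, adjusted p = 6.54e-11), and Mt1, a metal-binding metallothionein, 9.28-fold higher (SE 0.31 on the log2 scale, limma, adjusted p = 2.94e-08). For Mt1, females read 11.92, 12.12 and 12.33 and males 7.85, 8.69 and 10.26, and the males spread over the wider range.

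Fatty acid genes were higher in females in 16 of 51 measured cases and lower in 4 (over all genes 5.03% and 2.29%), with a median of 0.20. Hao2, a peroxisomal hydroxyacid oxidase, read 8.67, 9.16 and 9.51 in female KO and 2.52, 2.65 and 3.12 in male KO livers. The males were in the background, and the difference was 6.41 (SE 0.30, at least 50.4-fold, limma, adjusted p = 5.02e-15). Acot3 and Acot4, thioesterases that release fatty acids from acyl-CoA, were 15.8-fold and 3.03-fold higher (limma, adjusted p = 4.01e-14 and 1.64e-13). Elovl3, an elongase of very long-chain fatty acids, went the other way. It read 5.60, 5.75 and 5.98 in females and 10.28, 10.49 and 10.75 in males, a difference of -4.72 (SE 0.11, 26.4-fold lower, limma, adjusted p = 3.72e-22), and neither sex spread over more than 0.5 log2 units.

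Genes of cholesterol synthesis and uptake were higher in females in 7 of 24 measured cases and lower in 0 (over all genes 5.03% and 2.29%). Their median was 0.20. In WT livers 1 was higher, where 3.59% of all genes were, on the probe sets chosen by smallest p in KO. Of the 24, 0 passed the test of the difference between KO and WT given below. Sqle, the squalene epoxidase, differed by 0.69 (SE 0.16, limma, adjusted p = 0.00737), and Srebf2, the transcription factor of sterol synthesis, by 0.44 (SE 0.11, limma, adjusted p = 0.0131). The KO count of 7 rests on small differences. It fell to 2 without female KO replicates 3 and 6, and to 3 without female KO replicate 4 or male KO replicate 5. It fell to 4 without female KO replicate 1, 3 or 5 or male KO replicate 1, 2 or 3. The 4 other probe sets of Sqle read 0.35 to 0.50 and did not pass. In the pathways of amino acids, urea and glucose, 5 of 27 were higher and 1 lower, the latter near the background (over all genes 5.03% and 2.29%); Glul, the glutamine synthetase of hepatocytes around the central vein, was 1.49-fold higher (limma, adjusted p = 0.00116), and Mat1a, which makes S-adenosylmethionine, 1.40-fold higher (limma, adjusted p = 0.000501). In limma 0 of 18 clock genes passed, and their median was 0.03. At an unadjusted p under 0.05 there were 4, without a count of all genes at that threshold to set beside them.

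**Figure D2:**
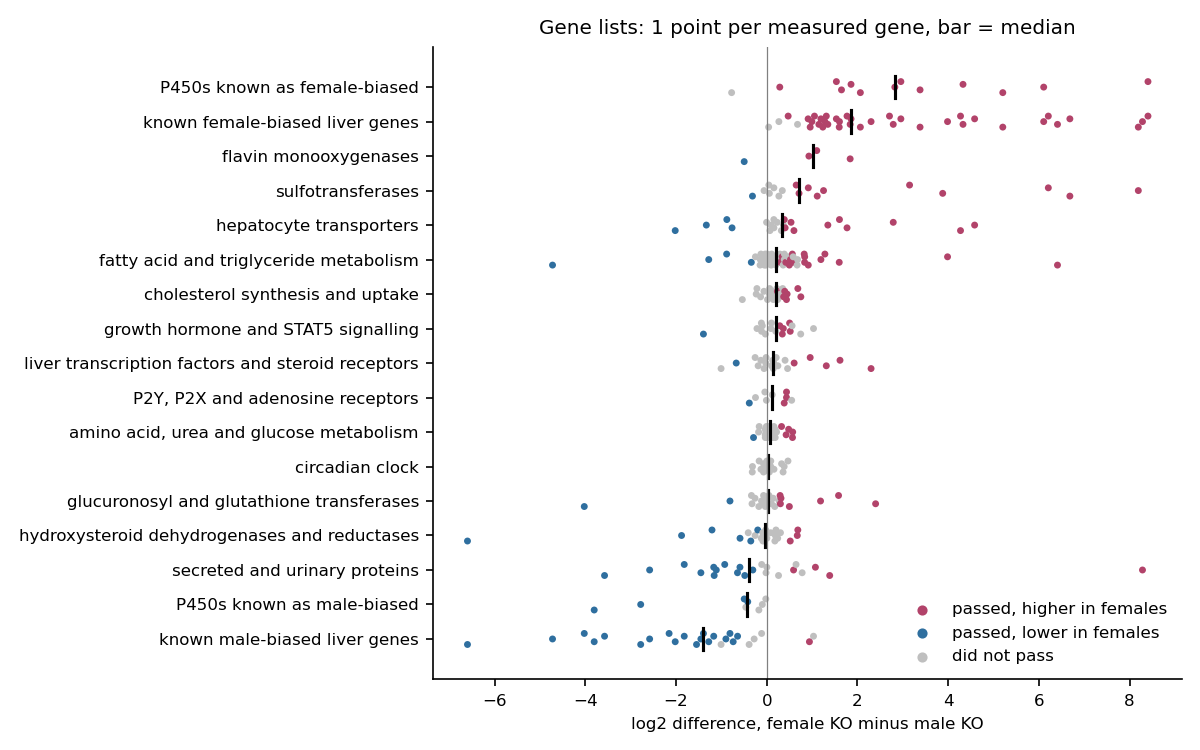
Log2 difference (female KO minus male KO) of each measured gene in 17 lists, with a bar at the list's median; coloured points passed the limma test. The medians run from 2.82 for P450s known as female-biased to -1.40 for known male-biased liver genes.

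Genes known for a liver sex bias kept their known side in KO livers, with few exceptions. Of 38 measured female-biased genes, 35 were higher in female KO livers and 0 lower (over all genes 5.03% and 2.29%), with a median of 1.85. Of 25 measured male-biased genes, 19 were lower and 1 higher (over all genes 2.29% and 5.03%). Their median was -1.40, against a median of -0.01 over all autosomal genes. Of the other 5, Socs2 lay on the female side without passing (1.03, given below). The gene that passed on the female side was Gas6, the ligand of the TAM receptor kinases, at 0.94 (limma, adjusted p = 4.22e-05); it is named here after its value was seen and was also higher in female WT livers, at 0.81 (limma, adjusted p = 0.000729). These lists overlap with the enzyme families above and were chosen with earlier results of these data known.

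Beyond the lists, further genes were among the 15 with the largest differences in each direction. Tafa2, a small secreted protein, was at least 6.99-fold higher in females (limma, adjusted p = 2.65e-11). Nat8, an acetyltransferase of cysteine conjugates, differed by -3.84 (SE 0.22, 14.4-fold lower, limma, adjusted p = 6.21e-13), and its relative Nat8f5 by -2.11 (SE 0.22, limma, adjusted p = 1.3e-07). Scara5, a ferritin receptor, was 9.51-fold lower, and Obp2a, an odorant-binding lipocalin, 8.18-fold lower (limma, adjusted p = 7.99e-11 and 5.06e-07). Obp2a varied among males, from 5.90 to 8.32, and little among females, from 4.07 to 4.54. Nox4, an oxidase that makes hydrogen peroxide, differed by -2.15 (SE 0.16, limma, adjusted p = 1.2e-10), with a second probe set at -2.06, and Etfbkmt, a methyltransferase of an electron carrier, by -2.12 (SE 0.20, limma, adjusted p = 2.94e-08).

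Genes of the signalling chain itself showed mostly small differences. Of 17 measured genes of growth hormone and STAT5 signalling, 5 were higher in female KO livers and 1 lower (over all genes 5.03% and 2.29%), with a median of 0.20. The number higher fell to 2 without female KO replicates 3 and 6, and to 3 without female KO replicate 2, 5 or 6 or male KO replicate 3. Ghr, the growth hormone receptor, read 12.14, 12.24 and 12.34 in females and 12.37, 12.44 and 12.57 in males. The sexes did not overlap, but the difference of -0.22 (SE 0.07, limma, adjusted p = 0.057) did not pass; it passed under 6 alternatives: without female KO replicate 2, without dim probe sets, with quantile normalization, with an intensity trend and robust variance, with array weights and in the adjusted plain analysis of variance. Stat5b itself was 0.20 higher (SE 0.08, limma, adjusted p = 0.187). Egfr, the receptor for epidermal growth factor, was 2.63-fold lower in females (SE 0.12 on the log2 scale, limma, adjusted p = 2.85e-09), with 2 further probe sets at -1.63 and -1.16. Igfals, which holds IGF1 in the circulation, was 1.43-fold higher (limma, adjusted p = 0.002). Igf1 differed by 0.29 (SE 0.08, limma, adjusted p = 0.0424), a call that ended without any KO array other than female replicates 3 and 4 and male replicates 1 and 6.

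Socs2, the feedback inhibitor of growth hormone signalling, and Bcl6 varied so much between animals of a sex that no difference could be shown. Socs2 read 8.77, 7.36, 6.85, 7.71, 8.89 and 9.10 in the females, replicates 1 to 6 in order, and 7.67, 7.13, 6.04, 6.96, 6.25 and 8.44 in the males. Its difference was 1.03 (SE 0.50, 95% interval 0.01 to 2.05, limma, adjusted p = 0.301). Bcl6 read 9.26, 8.38, 7.99, 8.47, 7.02 and 7.25 in the females and 7.97, 7.22, 10.49, 10.49, 10.18 and 8.06 in the males, a difference of -1.01 (SE 0.59, 95% interval -2.22 to 0.20, limma, adjusted p = 0.433). Male replicates 3, 4 and 5 were the 3 highest of the 12 for Bcl6, and male replicates 3 and 5 were the lowest for Socs2.

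Of 21 measured transcription factors and steroid receptors of the liver, 5 were higher in female KO livers and 1 lower (over all genes 5.03% and 2.29%), and these 5 include regulators known from female liver. Trim24, a co-regulator of nuclear receptors, read 8.63, 9.07 and 9.24 in females and 6.54, 6.64 and 7.23 in males, 2.30 apart (SE 0.14, 4.92-fold, limma, adjusted p = 8.2e-13). Esr1, the estrogen receptor alpha gene, was 3.06-fold higher (SE 0.19 on the log2 scale, limma, adjusted p = 7.81e-07), with a second probe set at 0.67. Tox, an HMG-box factor, was 2.49-fold higher (limma, adjusted p = 7.8e-09), with a second probe set at 1.87. Cux2 read 5.05, 5.32 and 5.55 against 4.02, 4.32 and 4.63, a difference of 0.96 (SE 0.12, limma, adjusted p = 4.57e-06), while its other probe set read 0.19 and did not pass. Hnf4a, a master factor of hepatocytes, differed by -0.02 (SE 0.07, limma, adjusted p = 0.93).

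Receptors for nucleotides and adenosine, of which the deleted gene is one, showed small differences. Of 9 measured P2Y, P2X and adenosine receptors, 3 were higher in female KO livers and 1, a P2X channel, lower (over all genes 5.03% and 2.29%). The number higher fell to 2 without female KO replicate 1, 4 or 5 or any of male KO replicates 2 to 6. It was 4 without male KO replicate 1. P2ry12, at 0.39 (limma, adjusted p = 0.041), lost its call in each of the fits with 2. P2ry14, a receptor for UDP-sugars that neighbours P2ry13, differed by 0.44 (SE 0.11, limma, adjusted p = 0.0127), and P2ry6, a receptor for UDP, by 0.44 (SE 0.10, limma, adjusted p = 0.00782). P2rx4, an ATP-gated channel, was 1.31-fold lower (SE 0.06 on the log2 scale, limma, adjusted p = 0.000236), and its values of 8.91 to 9.24 in females and 9.42 to 9.55 in males did not overlap.

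Markers of resident macrophages were higher in female KO livers. Of 9 measured Kupffer cell markers, 7 were higher and 0 lower (over all genes 5.03% and 2.29%), with a median of 0.47. Adgre1, a surface receptor of macrophages, read 8.17, 8.25 and 8.34 in females and 7.27, 7.57 and 7.85 in males, 0.70 apart (SE 0.09, limma, adjusted p = 1.81e-06), although a second probe set read 0.41 without passing. Timd4, a receptor for dying cells, was 1.60-fold higher and C1qa, a complement recognition chain, 1.44-fold higher (limma, adjusted p = 8.6e-05 and 0.00205). The mean level of the 9 markers lay between 8.55 and 8.95 in females and between 7.98 and 8.41 in males. Of 8 genes of MHC class II presentation, 4 were higher and 0 lower; H2-Ab1 differed by 0.79 (SE 0.16, limma, adjusted p = 0.00166) with overlapping animals. In whole liver, fewer cells of a type and less RNA per cell cannot be told apart. The number of Kupffer markers higher without female KO replicates 3 and 6 was 6.

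Fewer markers of other cell types passed. Among 11 endothelial markers 2 were higher, among 12 of stellate cells and fibroblasts 4, and among 10 of T and NK cells 3 were higher and 1 lower (over all genes 5.03% and 2.29%); without female KO replicate 3 or 4 or male KO replicate 1 the last had 1 higher. Cdh5, the cadherin of endothelium, was 1.38-fold and Col3a1, a fibrillar collagen, 1.46-fold higher (limma, adjusted p = 0.000256 and 0.00386). Of 5 hepatocyte, 7 B cell, 7 neutrophil, 4 adipocyte and 6 muscle markers and the single erythroid marker measured, 0 passed in limma. At an unadjusted p under 0.05 these lists had 1, 4, 1, 0, 0 and 1. The share of all genes at that unadjusted threshold was not counted, so these numbers have no background beside them. Of 7 cholangiocyte markers, Sox9 was lower in females (-0.45, limma, adjusted p = 0.00132). Its other probe set read -0.26 and did not pass. Of 8 exocrine pancreas markers, Cela1 was lower in females (-0.51, limma, adjusted p = 0.023). Cela1 no longer passed once any 1 of female KO replicates 2, 4 and 5 or male KO replicates 5 and 6 was omitted. The part of cell composition in the results above was not tested; the hepatocyte marker mean differed between the sexes by 0.02.

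**Figure D3:**
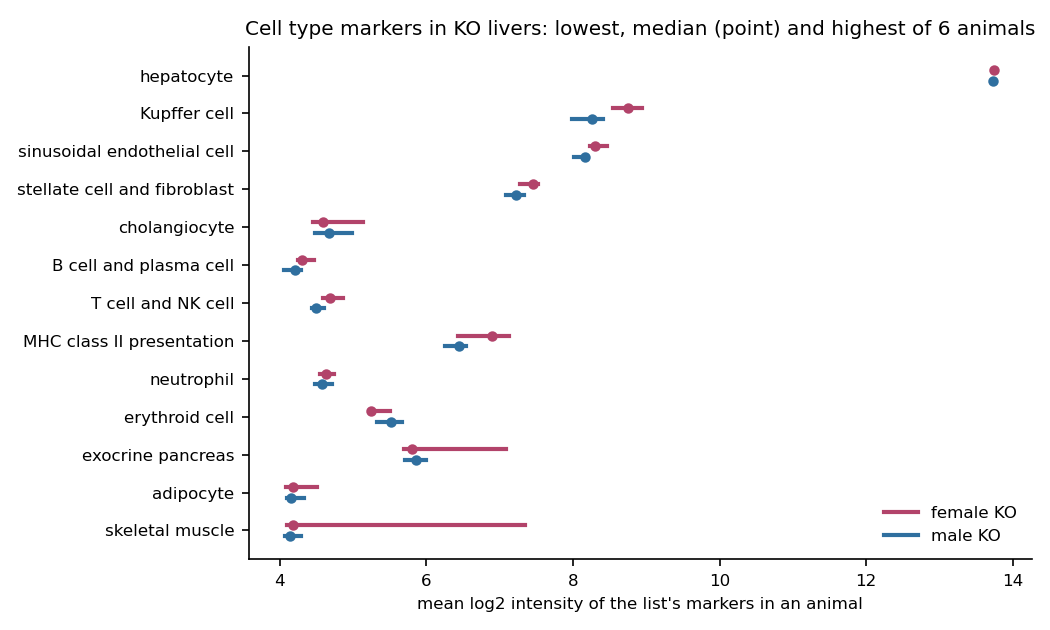
Mean log2 intensity of the markers of 13 cell types in KO livers, as the lowest, median (point) and highest of 6 animals per sex. The ranges of the sexes do not overlap for Kupffer cell and endothelial markers, and single female KO animals reach 7.08 for exocrine pancreas and 7.35 for skeletal muscle.

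The same comparison in WT livers, which shares no array with the KO comparison, passed for 1228 of 23405 autosomal probe sets (5.25%), 757 higher in females (3.23%) and 471 lower (2.01%). Of these 1228 probe sets, 731 also passed in KO livers, which is 59.5% of the WT and 50.6% of the KO calls, and all 731 had the same direction. Of the 1228 WT calls, 1196 had the same sign in KO, and of the 1444 KO calls, 1407 had the same sign in WT. Across the 23405 probe sets, which are not independent replicates, the KO and WT differences correlated with r = 0.81. By gene, 1075 of 18249 passed in WT livers (5.89%), 655 higher (3.59%) and 420 lower (2.3%). These gene counts use the probe sets with the smallest p in KO, and there were 5 male WT against 6 male KO arrays. They are therefore not like for like with the KO gene counts. Cyp2b9 differed by 8.41 in KO and 8.35 in WT, and the difference between these was 0.06 with a 95% interval of -0.26 to 0.38. Its males read in or near the background in both genotypes, 3.06 to 3.63 in KO and 3.02 to 3.65 in WT. The interval therefore cannot show whether the full sex differences were equal. Elovl3 differed by -4.72 and -4.88, with an interval of -0.17 to 0.49 for the difference between them.

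**Figure D4:**
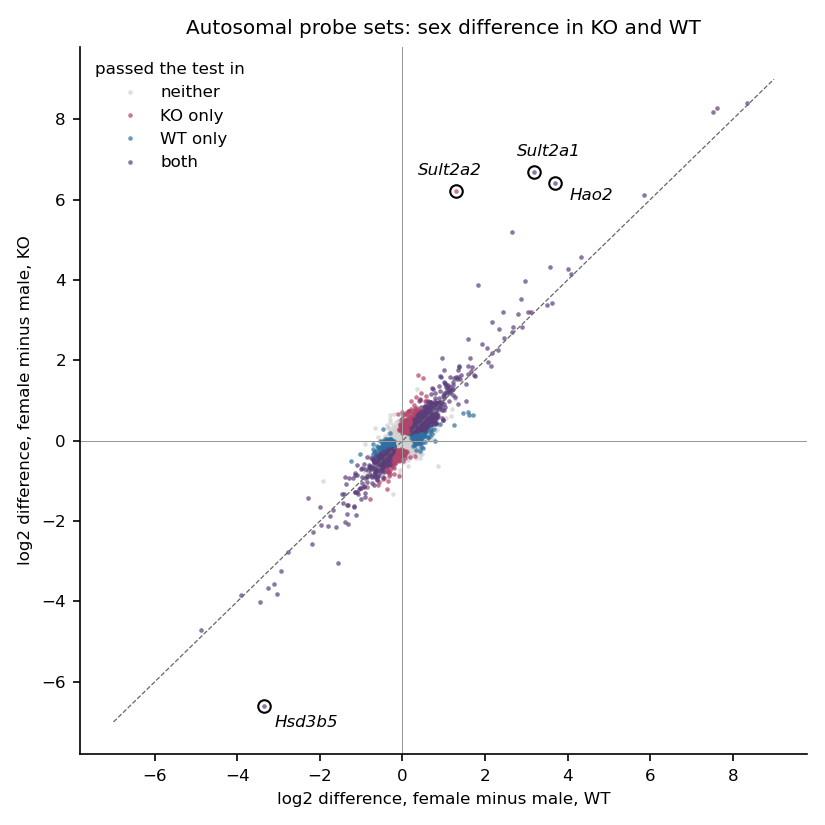
Log2 difference between females and males in WT (x) and in KO livers (y) for 23405 autosomal probe sets, coloured by where limma called them, with a dashed line of equal values. Most called probe sets lie along the line; Sult2a1, Sult2a2 and Hao2 lie above it and Hsd3b5 below it.

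The sex difference itself differed between KO and WT livers for 4 genes (0.0171% of 23405 autosomal probe sets; 1254, or 5.36%, at an unadjusted p under 0.05). In all 4 the KO difference was the larger, and female WT and female KO animals did not overlap. Sult2a2 read 3.90, 3.52, 3.89, 4.17, 3.85 and 3.82 in female WT replicates 1 to 6, below every female KO animal, and 2.39 to 2.74 in male WT. Its sex difference was 1.29 in WT (limma, adjusted p = 0.073) and 6.21 in KO, larger by 4.92 (95% interval 3.76 to 6.07, limma, adjusted p = 6.27e-05). The fit gives all groups a shared spread for each gene, and female KO animals ranged from 6.57 to 9.95. The WT p and the interval rest on that shared spread. Within WT, every female lay above every male. Sult2a1 read 6.67, 4.14, 5.99, 6.89, 5.65 and 6.28 in female WT replicates 1 to 6, also below every female KO animal. Its difference was 3.18 in WT and 6.68 in KO, larger by 3.50 (95% interval 2.67 to 4.33, limma, adjusted p = 6.27e-05). Males of both genotypes lay in the background for both genes, so these sizes are uncertain at the lower end.

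Hao2 read 5.25, 5.47, 5.99, 6.89, 8.23 and 7.09 in female WT replicates 1 to 6 and 2.60 to 2.93 in male WT. The difference of 3.69 in WT was smaller than the 6.41 in KO by 2.72 (95% interval 1.82 to 3.62, limma, adjusted p = 0.0131). With an intensity trend and robust variance this gap did not pass (limma, adjusted p = 0.219). Males of both genotypes lay in the background for Hao2 as well, so its sizes are also uncertain. Hsd3b5 read 8.19, 10.09, 9.90, 9.83, 7.74 and 9.22 in female WT replicates 1 to 6, above every female KO animal, and 12.27 to 12.75 in male WT. Its difference was -3.35 in WT and -6.60 in KO, and the gap between these was -3.25 (95% interval -4.17 to -2.33, limma, adjusted p = 0.00116). Hao2 and Hsd3b5 lie on chromosome 3, as does P2ry13, and Sult2a1 and Sult2a2 on chromosome 7. All 4 passed when any 1 of the 23 arrays was left out, and without female KO replicates 3 and 6; in the adjusted plain analysis of variance only Sult2a1 and Sult2a2 did.

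**Figure D5:**
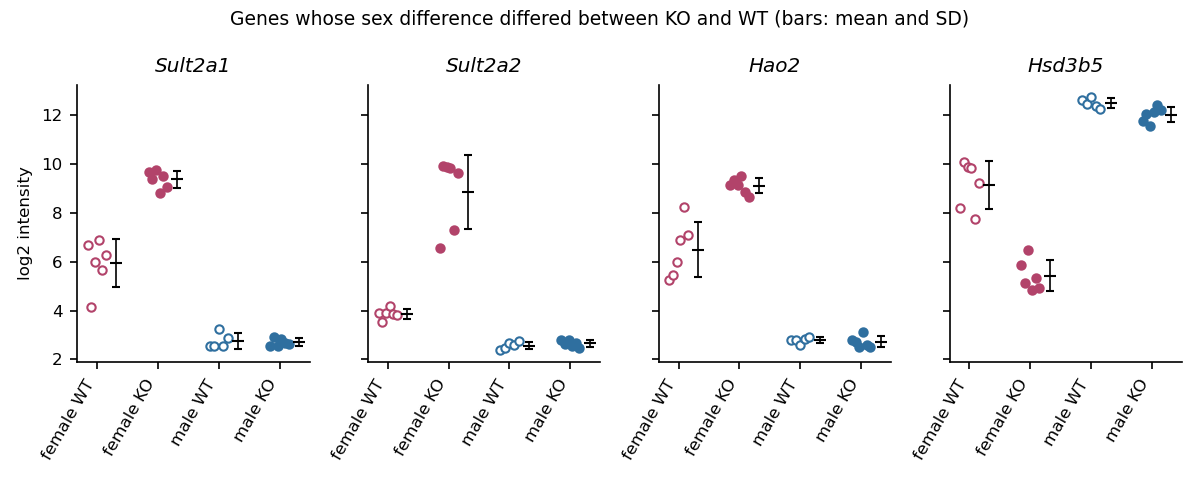
Log2 intensity of Sult2a1, Sult2a2, Hao2 and Hsd3b5 in female WT (n = 6), female KO (n = 6), male WT (n = 5) and male KO (n = 6) livers, with 1 point per animal and the mean and SD beside it. Female WT and female KO animals do not overlap in any of these genes, while the male groups lie close together.

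Other large KO differences were set beside WT without passing this test. Cyp2d9 differed by -3.03 in WT and -3.80 in KO, a gap of -0.77 (95% interval -1.05 to -0.48, limma, adjusted p = 0.0568), which passed without female KO replicate 2, 3 or 6. Cyp3a16 differed by 2.66 and 5.20, a gap of 2.54 (95% interval 0.98 to 4.10, limma, adjusted p = 0.874), and Acot3 by 2.98 and 3.99, a gap of 1.01 (95% interval 0.40 to 1.62, limma, adjusted p = 0.869). For Cyp3a16, males of both genotypes lay in the background. Among the 731 probe sets called in both genotypes no direction was reversed. Over the 1228 WT calls the median ratio of the KO to the WT difference was 0.82, and over the 1444 KO calls the median ratio of the WT to the KO difference was 0.76; each ratio is below 1 in the set that chose its own denominator.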

How the data were processed

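RNA from 23 mouse livers was amplified to biotin-labelled cRNA and read on 1 array each, per the labels' protocols. The authors deposited intensities on a linear scale, summarised with RMA according to the submitters' processing notes; RMA's version and settings were not given in the sources used here. Groups and replicate numbers come from the sample titles.

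From these deposited intensities log2 values were taken, with no further scaling, filter or pseudocount. Probe sets were named from the repository's platform annotation, with symbols and chromosomes updated by Entrez ID from a RefSeq gene table of GRCm38.p6: of 38385 probe sets 24478 had 1 symbol, 65 several and 13842 none here, and 24237 of the 24478 were found in the table. Promoter sequences are from RefSeq (GRCm38.p6). The leading genes without an entry in the table used include Sult2a1, Sult2a2, Elovl3, Cyp7b1, Abcd2, Scara5 and Cyp17a1.

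All 23 arrays entered a limma 3.58.1 fit with a mean for each group (R 4.3.3; lmFit, eBayes; 19 residual and 7.61 prior degrees of freedom). Contrasts were females minus males in KO, the same in WT, and the difference of both. Two-sided p-values were adjusted (Benjamini-Hochberg, over the 38385 probe sets), with 0.05 as the threshold; SEs are limma's moderated ones and intervals cover 95%. Each gene is represented by its probe set with the smallest p in KO, also in the counts over all genes. The number of arrays limits the precision. Correlations and overlaps are descriptions without a test. The fit was tested on simulated data before use. Plots were made in Python 3.11.15 with matplotlib 3.10.9.

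The members, lists and rules were chosen with earlier results of these data known. The rule names the 15 highest and 15 lowest differences among passing autosomal genes, up to 4 members by smallest p from lists where some member passed and up to 2 from others, 11 regulators and P2ry13 whatever their result, genes passing the test of the difference, and the 5 brightest genes in each direction with a difference of at least 1. Clone and predicted names were left out, and the text prints a part of the genes so named. Alternatives were only the compared groups in the fit, a filter on dim probe sets, quantile normalization, equal array medians, an intensity trend with robust variance, array weights, a change of at least 20% besides the p, the replicate number as a block, plain analysis of variance as in the design text, with and without adjustment, and leaving out each array. Leaving out female KO replicates 3 and 6 and taking the brightest probe set of a gene for lists and gene counts were added after the data were seen.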

Additional observations from a re-analysis of the deposited data

Results flagged for a closer look

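Single animals stood apart from the rest of their group for some of the 123 named genes. In a group of 6, an animal was counted as apart where its gap to the nearest other animal exceeded 0.625 of the group's range, a rule by which chance alone marks about 5% of groups; it marked 15 in 246 groups.

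Female KO replicate 3 was the highest of its group for the pancreatic enzymes Cela2a (7.54), Cpb1 (6.60) and Ctrb1 (7.99), where the next females read 4.96, 4.48 and 6.24. Female KO replicate 6 was the highest for the muscle genes Ckm (6.87) and Mylpf (6.24), where the next read 4.95 and 4.82. Both animals are among the 6 of the comparison, and none of these 5 genes passed between the sexes (limma, adjusted p from 0.302 to 0.61). Without both animals 1186 autosomal probe sets passed, against 1444. Such readings were not confined to KO animals. Female WT replicate 1 read 5.66 for Ckm and 6.07 for Mylpf, and female WT replicate 3 read 6.86 for Ctrb1. The WT arrays were left out only 1 at a time.

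Female KO replicate 5 was the highest for Fmo4 (6.84) and the lowest for Papss2 (11.38), female KO replicate 1 the lowest for C6 (7.32) and female KO replicate 4 the highest for Pax5 (4.56). Male KO replicate 5 was the highest for C8b (12.29) and Trim24 (7.23) and the lowest for Ecm1 (9.07). Male KO replicate 6 was the highest for Cdh1 (9.78), male KO replicate 1 for Rora (7.76), and male KO replicate 4 the lowest for Cpb1 (3.78).

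The sex difference was not the same in KO and WT livers for 4 genes, by limma's test of the difference: it was more positive in KO by 4.92 for Sult2a2, 3.50 for Sult2a1 and 2.72 for Hao2, and the value for Hsd3b5 was -3.25 (limma, adjusted p = 6.27e-05, 6.27e-05, 0.0131 and 0.00116).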

How the results depend on the processing

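The directions of the 96 named genes that passed in KO livers were the same under every alternative run; 75 kept their call under each and 21 lost it under at least 1, most of them immune, collagen, sterol or growth factor genes with differences under 0.8. By probe set, the KO sex difference passed for 1329 with only the compared groups in the fit, 1582 without dim probe sets, 1464 with quantile normalization, 1450 with equal array medians, 1470 with an intensity trend and robust variance, 1564 with array weights and 1349 with a minimum change of 20%, against 1444. The share of calls higher in females was 69.0%, and 60.4% with quantile normalization and 76.2% with equal array medians. The design text's plain analysis of variance (unadjusted p under 0.05 and a change of over 20%) passed 1974 in KO, 1991 in WT and 754 for the difference; after adjustment it passed 949, 584 and 2, the last Sult2a1 and Sult2a2. Leaving out 1 array gave 1127 to 1371 in KO, 975 to 1113 in WT and 4 to 5 for the difference. Cyp2d9 joined the 4 genes of the difference without dim probe sets, and replaced Hao2 with an intensity trend and robust variance.

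Replicate numbers did not pair the sexes: same-numbered female and male KO arrays had deviations from their group means that correlated between -0.14 and 0.04. With the replicate number as a block, 1327 probe sets passed in KO, 1143 in WT and 4 for the difference. With the brightest probe set of each gene, 858 of 18249 genes were higher in female KO livers and 377 lower, against 918 and 418. In the lists, 5 in place of 7 cholesterol genes were higher. Lower were 3 in place of 4 transporters and 0 in place of 1 cholangiocyte marker, and the other list counts did not change. Values at or near background give the size of the largest differences only as bounds.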

Other observations

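Called genes were spread over all 19 autosomes. The share of genes with a KO sex difference ran from 6.03% of 895 on chromosome 17 to 10.3% of 610 on chromosome 12, against 7.32% over all. On chromosome 19, named here after its counts were seen, 51 of 619 genes were higher in females and 7 lower (over all genes 5.03% and 2.29%). No test of these shares was made, since genes in a cluster can share signal.

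The animal with the most extreme value was counted over the leading genes, which were chosen for their sex difference. Among the 15 lower in females, male KO replicate 3 had the lowest male value in 10 and male KO replicates 4 and 6 in 0. Among the 15 higher in females, male KO replicate 3 had the highest male value in 3, male KO replicates 4 and 5 in 4 each. Female KO replicates 2 and 4 each had the highest female value in 6 of these, and replicate 6 the lowest in 5. These are counts over genes of the same animals and were not tested.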
